A study of Mus musculus with 6 samples.

Results

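The genes described here are 40 genes of mitosis and the spindle, listed by name from their known roles as the kinases and cyclins of mitotic entry, the spindle checkpoint, the anaphase promoting complex (APC/C) and its targets, the chromosomal passenger complex, centromere and kinetochore proteins, kinesins, and the cytokinesis machinery. Of these, 39 were read on the arrays, among 18193 named genes, and Ccnb1 was not analysed here. The samples were primary mouse embryonic fibroblasts (MEFs) whose Cnot3 alleles carry loxP sites. Control MEFs, which the labels call wild type, were infected with a mock retrovirus. CNOT3-depleted MEFs (CNOT3KD in the labels) were infected with a retrovirus encoding Cre, so that both kinds of culture were infected cell pools selected for 2 days with puromycin, and neither was a clone. Total RNA was taken before (0 h) and 6 and 12 h after addition of actinomycin D (Act. D), a drug that stops transcription, and each of the 6 conditions was measured on 1 array. With 1 array per condition no difference below has a replicate check, no test was possible, and every ratio compares single arrays. The sources used here give neither the number of animals behind each culture nor the embryonic stage.

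CNOT3 is a subunit of the CCR4-NOT complex, the major deadenylase of animal cells, which shortens the poly(A) tail of mRNAs and so starts their decay. Mitosis is driven by CDK1 bound to A- and B-type cyclins and by the Polo and Aurora kinases. The spindle checkpoint delays the separation of sister chromatids until all chromosomes are attached to microtubules, and the APC/C, activated by CDC20, then marks cyclins and securin for destruction. In fibroblasts most, but not all, of these genes are transcribed mainly in G2 and M phase of dividing cells. The level of such a gene in a culture depends both on how many cells divide and on how much mRNA each holds. In RNA from whole cultures, fewer dividing cells and less mRNA per cell cannot be told apart.

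The arrays had trimmed means between 494 and 497 signal units, medians between 51.0 and 77.4 and 75th percentiles between 242 and 447, so their distributions differed although their trimmed means did not. The 39 members were well above background. All 39 were at or above the median gene signal at 0 h, 37 were above the 75th percentile of the control array at 0 h, and 0 were under the 25th percentile of any array, which lies between 13.6 and 19.8. The targeted gene Cnot3 had a 0 h signal of 436 in control MEFs, against 239.6 after depletion, at its brighter probe set, a 1.82-fold lower level. Its other probe set gave 204 and 227, so at 0 h the depletion showed at 1 of 2 probe sets. At 6 and 12 h of Act. D that other probe set gave 201 and 279 in control MEFs, against 90.7 and 92.6 after depletion. The summed signal of 10 fibroblast markers at 0 h was 109610 in control MEFs, against 114970 after depletion (1.05-fold), and none of them was under the 25th percentile in any array. Much lower sums were found for 9 leukocyte markers (2482 and 3666, 1.48-fold), 7 epithelial markers (780.2 and 1279.9, 1.64-fold) and 5 muscle markers (449 and 664, 1.48-fold), and the sums of 6 endothelial and 6 neural markers were 1.03-fold and 1.01-fold that of control. Of these, 1 endothelial marker was under the 25th percentile in every array. In at least 1 array this held for 1 leukocyte, 2 endothelial, 3 epithelial and 2 neural markers. Single markers differed in direction by more than 1.5-fold, with 4 epithelial ones higher and 1 lower, and 3 leukocyte ones higher and 1 lower. The part of these markers in the results was not tested. The geometric mean signal of ribosomal protein genes went from 10717 to 18102 in control MEFs over 12 h of treatment, against 9798 to 10964 after CNOT3 depletion, so the percentages left depend on the scale chosen.

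The first comparison asks how the level of the mitotic mRNAs differed between the cultures before transcription was stopped. At 0 h the mitotic genes were lower in CNOT3-depleted MEFs nearly as a group, with 37 of 39 below control, against 41.7% of genes at or above the median signal. A more than 1.5-fold lower signal was found for 23 members, and the background was 15.7% of all named genes and 5.99% of genes at or above the median signal. Birc5, which encodes survivin of the chromosomal passenger complex, differed most at 2.69-fold lower, followed by the spindle motor gene Kif11 at 2.62-fold and the centromeric histone gene Cenpa at 2.54-fold. A more than 1.5-fold higher signal was found for 1 member, Pttg1, which encodes securin, the inhibitor of separase. That direction held for 19.5% of all named genes and 10.2% of genes at or above the median. The median log2 fold at 0 h was −0.72 over the members, 0.06 over all named genes and 0.08 over genes at or above the median.

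The second comparison asks how much of each mRNA was left once Act. D had stopped new synthesis. In control MEFs the mitotic genes split widely, from 7.07% of the 0 h signal left at 12 h for Plk1 to 154% for Ccnb2, with a median of 29.4%. In CNOT3-depleted MEFs most stayed near their starting level, with a median of 108.6%, and 31 of 39 lay between 75% and 150%, against 10 in control MEFs. The shares over genes at or above the median signal were 66.9% and 25.2%. At or under 50% of the signal was left at 12 h for 26 members in control MEFs, where the share over genes at or above the median was 40.5%. In CNOT3-depleted MEFs 3 members were at or under that level (Cdc25b, Plk4 and Espl1), where the share was 15.9%. The arrays have nearly the same trimmed mean, so a percentage left is relative to the other mRNAs on the array, and a value above 100 is not an amount per cell. Words such as lost, kept and little or no loss are used below in this relative sense only.

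**Figure D1:**
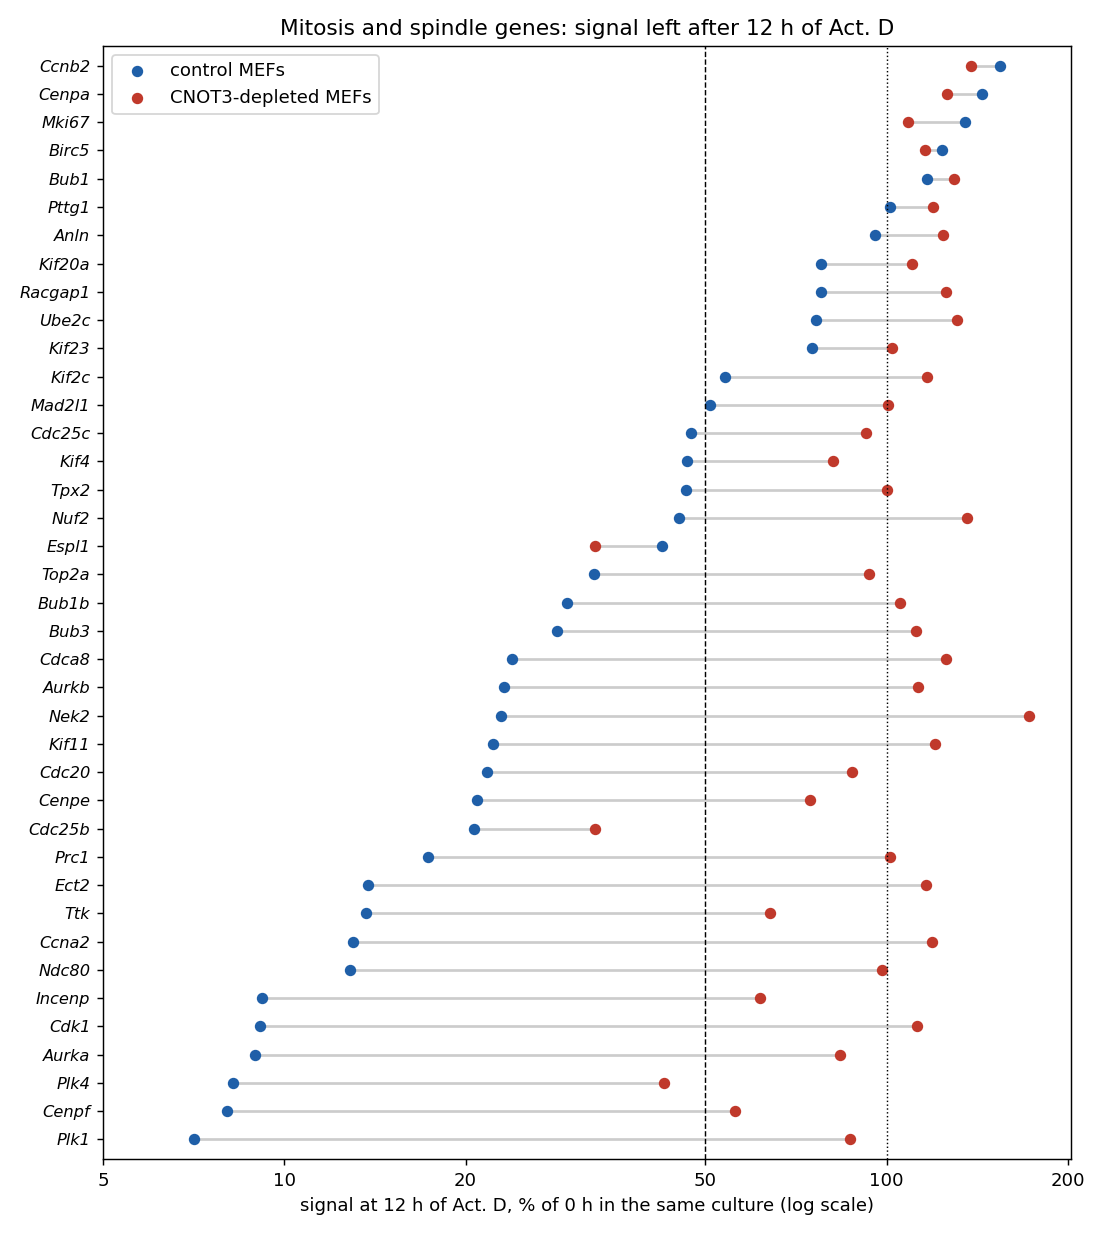
Signal at 12 h of Act. D in percent of the 0 h signal of the same culture, on a log axis, for each of the 39 mitosis and spindle genes in control MEFs (blue) and CNOT3-depleted MEFs (red), 1 array per condition. The dashed line marks 50% and the dotted line 100%; 26 blue and 3 red points lie at or under the dashed line.

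Stabilization is given here on the log2 scale as the fraction left after CNOT3 depletion over that in control MEFs, averaged over 6 and 12 h. Its median was 0.96 over the members, 0.02 over all named genes and 0.19 over genes at or above the median signal. By a stricter rule a gene at or above the median signal at time 0 counted as stabilized where CNOT3-depleted MEFs kept 2 times or more the fraction that control MEFs kept, at 6 h as well as at 12 h, and the signal of CNOT3-depleted MEFs at 6 h was between 0.5 and 2 times that at 0 h. This held for 13 members (Cdk1, Ccna2, Plk1, Plk4, Aurka, Nek2, Ttk, Cdc20, Aurkb, Incenp, Cenpf, Kif11 and Ect2), and for 11.9% of genes at or above the median. With the cultures exchanged it held for 0 members and for 0.209% of those genes. After scaling to ribosomal protein genes, 20 members and 21.7% of genes at or above the median met the rule. In 12 members the signal was below its 0 h level at both times in control MEFs and above it at both times after depletion, which held for 8.26% of genes at or above the median. For some of the 12 the margin was small. All 13 stabilized members were among the 26 with 50% or less left in control MEFs, which is partly built into the rule, because an mRNA that stays in control MEFs has little room to last longer.

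Cdk1, the kinase that drives entry into mitosis, and Ccna2, the A-type cyclin, were among the mRNAs with the widest gap between the cultures. The Cdk1 signal at 0, 6 and 12 h was 5404, 2918 and 492 in the control culture, against 3996, 4471 and 4484 after CNOT3 depletion. It was 1.35-fold lower in CNOT3-depleted MEFs at 0 h and 9.12-fold higher at 12 h. For Ccna2 the signals were 2862, 775 and 372 in the control culture, against 1588, 2037 and 1886 after CNOT3 depletion, so that 13.0% was left at 12 h in control MEFs, against 119% after depletion. The B-type cyclin Ccnb2 had the opposite course, with signals of 2801, 4104 and 4323 in the control culture, against 1299, 1517 and 1794 after CNOT3 depletion. It was 2.16-fold lower at 0 h and stayed lower at both later times, since neither culture lost it. The phosphatases CDC25B and CDC25C activate CDK1. Cdc25b was lost in both cultures, with 28% at 6 h and 20.7% at 12 h in the control culture, against 55.1% and 32.8% after CNOT3 depletion. Cdc25c kept 47.3% at 12 h in control MEFs, against 92.5% after CNOT3 depletion.

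The Polo, Aurora A and NIMA-related kinase genes Plk1, Plk4, Aurka and Nek2, grouped here apart from the kinases of the checkpoint and the passenger complex, met the rule for stabilization, with a median of 8.6% left at 12 h in control MEFs, against 85.4% after depletion. Plk1, a Polo-like kinase of mitotic entry and the spindle, had signals at 0, 6 and 12 h of 1135, 194 and 80.2 in the control culture, against 959.9, 879 and 836 after CNOT3 depletion. It was the member with the highest stabilization, at a log2 ratio of 3.02, while the cultures differed by 1.18-fold at 0 h. Aurka, the Aurora kinase of spindle poles, gave 825, 182 and 73.8 in the control culture, against 619.6, 633 and 518 after CNOT3 depletion. Plk4, the kinase of centriole duplication, gave 2734, 502 and 225 in the control culture, against 1387, 787 and 593 after CNOT3 depletion, and was thus lost in both cultures but more slowly after CNOT3 depletion. Nek2, a kinase of centrosome separation, gave 759, 317 and 174 in the control culture, against 400.4, 631 and 691 after CNOT3 depletion. Its 172% left at 12 h was the highest value among the members in CNOT3-depleted MEFs.

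The spindle checkpoint genes differed among themselves in both respects. Ttk encodes MPS1, the kinase that starts the checkpoint signal, and was the 1 stabilized member of the 5, with signals of 607, 109 and 82.8 in the control culture, against 319, 299.9 and 204 after CNOT3 depletion. Its second brightest probe set gave a log2 stabilization of −2.05, in the opposite direction, but was dim, with 2 arrays under the 25th percentile. Bub3, a checkpoint adaptor at the kinetochore, was 1.14-fold higher after depletion at 0 h (6705 in control, 7626 after depletion), and it then kept 54.5% at 6 h and 28.4% at 12 h in the control culture, against 106% and 112% after CNOT3 depletion. Its second probe set kept 82.2% and 84.9% in control MEFs, against 82.2% and 89.2% after depletion, so its decay depends on the probe set. At 0 h that second probe set was 1.07-fold higher after depletion, and only dim probe sets of Bub3 were lower. Bub1b, which encodes the checkpoint protein BUBR1, held 88.0% at 6 h but 29.4% at 12 h in control MEFs, against 100.4% and 105% after depletion. Mad2l1, the checkpoint protein MAD2, showed a like delay, with 106% at 6 h and 51.0% at 12 h in the control culture, against 127% and 100.4% after CNOT3 depletion. The kinase gene Bub1 was 1.81-fold lower at 0 h and kept 117% at 12 h in control MEFs, against 129.6% after CNOT3 depletion.

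**Figure D2:**
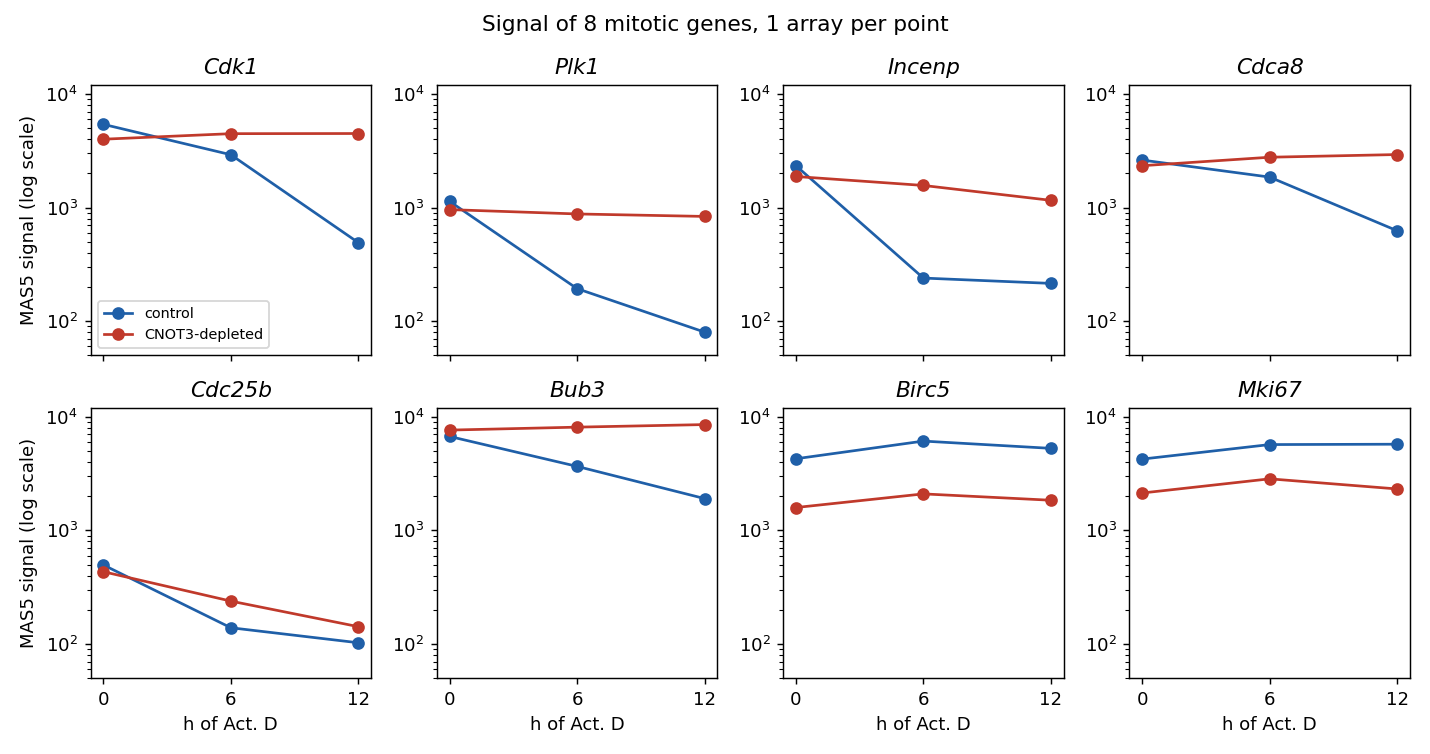
MAS5 signal (log axis) at 0, 6 and 12 h of Act. D for 8 mitotic genes in control MEFs (blue) and CNOT3-depleted MEFs (red); each point is 1 array. Cdk1, Plk1, Incenp, Cdca8 and Bub3 were lost mainly in control MEFs, Cdc25b in both, and Birc5 and Mki67 stayed high in both at a lower level in CNOT3-depleted MEFs.

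Among the genes that carry cells out of metaphase, none was more than 1.5-fold lower at 0 h. Cdc20, the activator of the APC/C, was the brightest member at 0 h in control MEFs and had signals of 8708, 3298 and 1890.3 in the control culture, against 7522, 6671 and 6592 after CNOT3 depletion. The cultures thus differed by 1.16-fold at 0 h and 3.49-fold, in the other direction, at 12 h. Ube2c, the ubiquitin-conjugating enzyme of the APC/C, stayed near its starting level in both, with 76.3% at 12 h in control MEFs, against 131% after CNOT3 depletion. Pttg1 was higher in CNOT3-depleted MEFs at every time, with signals of 3980.4, 4869 and 4031 in the control culture, against 6244, 7017 and 7456 after CNOT3 depletion, and its fraction left was alike in the cultures (log2 stabilization 0.06). Espl1, which encodes separase, the protease that cuts cohesin, gave 409.9, 79.8 and 174 in the control culture, against 302, 172 and 99.0 after CNOT3 depletion. Its control signal was higher at 12 h than at 6 h, so its fraction left favoured CNOT3-depleted MEFs at 6 h and control MEFs at 12 h.

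The 4 genes of the chromosomal passenger complex, which corrects wrong attachments and then guides cytokinesis, differed among themselves. Incenp, the scaffold of the complex, had signals of 2340.2, 239.8 and 215 in the control culture, against 1878, 1566 and 1158 after CNOT3 depletion, with 10.2% left in control MEFs by 6 h, the lowest among the members at that time. Aurkb, its kinase, gave 748, 359 and 173 in the control culture, against 416, 491 and 469 after CNOT3 depletion. Cdca8, which encodes borealin, gave 2619.8, 1855 and 626 in the control culture, against 2336, 2774 and 2929 after CNOT3 depletion. It missed the rule at 6 h, where 70.8% was still left in control MEFs. Birc5, in contrast, gave 4265, 6103 and 5268 in the control culture, against 1588, 2094 and 1841 after CNOT3 depletion. Its mRNA was thus lower in CNOT3-depleted MEFs at all times and kept by both cultures.

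Of the 5 centromere and kinetochore genes, 4 had a more than 1.5-fold lower 0 h signal. Cenpf, a kinetochore protein of G2 and M phase, had signals of 1079.9, 384 and 86.7 in the control culture, against 558, 487 and 312 after CNOT3 depletion, and met the rule for stabilization. Ndc80, the microtubule-binding subunit of the outer kinetochore, gave 572, 279 and 73.6 in the control culture, against 470.5, 452 and 462 after CNOT3 depletion. It just missed the rule, since its fraction left was under 2 times that of control at 6 h, and its partner Nuf2 kept 45.3% at 12 h in control MEFs, against 136% after CNOT3 depletion. Cenpe, a kinesin that moves chromosomes to the spindle equator, kept 60.2% at 6 h and 20.9% at 12 h in the control culture, against 100.3% and 74.7% after CNOT3 depletion. Cenpa, the histone that marks centromeres, gave 3314, 5100.4 and 4775 in the control culture, against 1303, 1672 and 1640.3 after CNOT3 depletion, with no loss in either culture.

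At the probe sets used, all 4 kinesin and spindle assembly genes had a more than 1.5-fold lower 0 h signal. Kif11, the motor that pushes spindle poles apart, had signals of 496, 299 and 110.3 in the control culture, against 189, 276 and 228 after CNOT3 depletion, and was the 1 stabilized member of this group. Kif2c, a kinesin that depolymerizes microtubules, kept 54.0% at 12 h in control MEFs, against 117% after CNOT3 depletion. Its stabilization turned to −0.45 on the log2 scale when the median over its probe sets was used. At 0 h Kif2c was 2.00-fold lower at the probe set used and 1.09-fold and 1.05-fold lower at the next 2. Its dimmest probe set gave 2.50-fold. Kif4, a chromosome-bound kinesin, kept 46.6% at 12 h in control MEFs, against 81.6% after CNOT3 depletion. Tpx2, which activates Aurora A on the spindle, kept 46.4% at 12 h in control MEFs, against 100.3% after CNOT3 depletion. For Tpx2, 2 of its dimmer probe sets gave the opposite direction, at 0 h as well as for stabilization.

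The 6 genes of the central spindle and cytokinesis had the smallest median gap in decay among the roles with 4 or more members, with 76.5% left at 12 h in control MEFs, against 113.1% after depletion. Ect2, the exchange factor that activates RhoA at the cleavage furrow, met the rule, with signals of 1930.0, 968 and 265 in the control culture, against 1169.8, 1683 and 1358 after CNOT3 depletion. Prc1, which bundles microtubules of the central spindle, gave 2369.7, 1305 and 411 in the control culture, against 1899, 1989 and 1927 after CNOT3 depletion, and just missed the rule at 6 h. Ect2 and Prc1 stood apart from the others, with log2 stabilization of 2.30 and 1.74. Kif20a and Kif23, kinesins of the central spindle, kept 77.8% and 75.3% at 12 h in control MEFs, against 110.2% and 102% after depletion. Racgap1, the partner of Kif23, was 1.27-fold lower at 0 h and kept 77.7% at 12 h in control MEFs, against 126% after CNOT3 depletion. Anln, the actin-binding protein anillin of the furrow, gave 7049, 9396 and 6739 in the control culture, against 3295, 4586 and 4084 after CNOT3 depletion, and was thus 2.14-fold lower at 0 h with little loss in either culture.

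Of the remaining chromosome genes, Top2a, the topoisomerase that untangles sister chromatids, kept 32.7% at 12 h in control MEFs, against 93.6% after CNOT3 depletion. A second probe set gave a log2 stabilization of −0.47. Mki67, the proliferation marker that coats mitotic chromosomes, had signals of 4237, 5687 and 5729 in the control culture, against 2131, 2841 and 2314 after CNOT3 depletion. It stayed high under Act. D, and the cultures differed by 1.99-fold at 0 h.

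The members thus ranged from mRNAs that control MEFs lost to mRNAs that they kept, with no gap at 50%. Cdc25c had 47.3% left at 12 h in control MEFs and Mad2l1 51.0%, so the split at 50% is a matter of threshold. The 26 members with 50% or less left at 12 h in control MEFs had a median log2 fold at 0 h of −0.58, and 13 of them were more than 1.5-fold lower. The 13 with more left had a median of −1.0, and 10 were more than 1.5-fold lower. The split and the fold share the control array at 0 h, so they are given as a description. Over all 39 members the median ratio of CNOT3-depleted to control signal was 1.27 at 6 h and 1.85 at 12 h, and 23 members were more than 1.5-fold higher at 12 h, where the share over genes at or above the median was 42.7%. In all, 27 members were below control at 0 h and above it at 12 h, which held for 17.6% of genes at or above the median. The small negative log2 stabilization of Ccnb2, Bub1, Birc5, Cenpa and Mki67 turned positive with quantile normalization and with ribosomal protein scaling, and no direction is given for it.

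**Figure D3:**
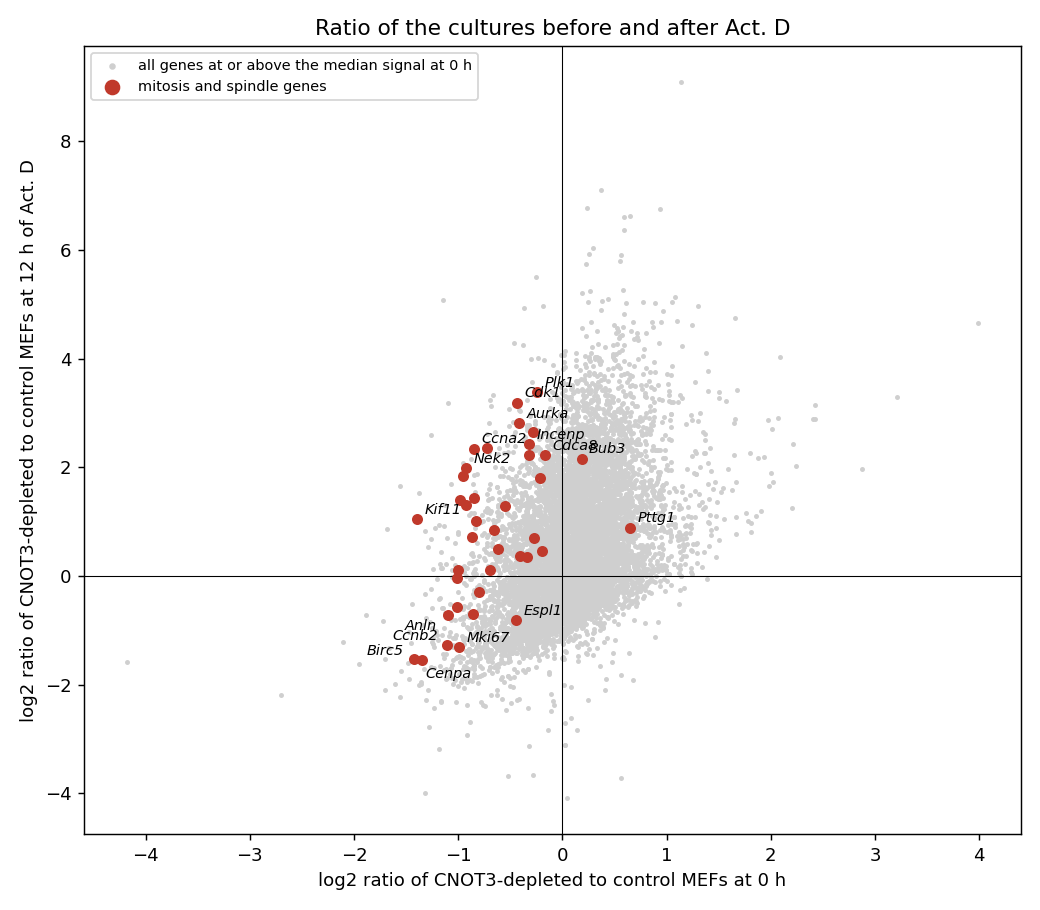
Log2 ratio of the signal in CNOT3-depleted to control MEFs at 0 h (horizontal) and at 12 h of Act. D (vertical) for the 39 mitosis and spindle genes (red) and for all 9097 genes whose 0 h signal reached the median (grey), from 1 array per condition. Most red points lie left of 0, with 27 in the upper left part (lower at 0 h, higher at 12 h).

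The promoters of these genes were examined because the members were lower together at 0 h. CCAAT boxes and the cell cycle genes homology region (CHR, TTTGAA or TTCGAA) are known elements of promoters active in G2 and M phase. RefSeq promoter windows of assembly GRCm38.p6, from 250 bases before to 50 bases after a start, were found for 33 members (36 windows). On either strand CCAAT was held by 77.8% of these windows against 37.4% of all 32851 windows, TTTGAA or TTCGAA by 80.6% against 19.2%, and both by 72.2% against 7.52%. Over 9587 windows of genes at or above the median signal the shares were 37.7%, 13.8% and 5.57%. The E2F-type motifs TTTCGCGC or TTTGGCGC were in 1 of the members' windows (2.78%), in 0.813% of all and in 1.70% of those of genes at or above the median. The 100 bases before the start are shown for 3 stabilized members (Cdk1, Cdc20 and Kif11), for Prc1, which just missed the rule, for Ube2c, which both cultures kept, and for Espl1, which both lost, so that like elements can be seen before genes of unlike decay. They are written 5′ to 3′ on the strand of the gene, and capitals mark the motifs. ATTGG and TTCAAA are CCAAT and TTTGAA read on the other strand, and no motif contains another. The stretches are Cdk1 at chr10:69352913-69353012 (minus strand), Cdc20 at chr4:118437344-118437443 (minus strand), Kif11 at chr19:37376282-37376381 (plus strand), Prc1 at chr7:80294376-80294475 (plus strand), Ube2c at chr2:164769829-164769928 (plus strand) and Espl1 at chr15:102296193-102296292 (plus strand).
Cdk1: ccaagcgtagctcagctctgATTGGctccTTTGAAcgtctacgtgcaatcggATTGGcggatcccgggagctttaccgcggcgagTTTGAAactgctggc
Cdc20: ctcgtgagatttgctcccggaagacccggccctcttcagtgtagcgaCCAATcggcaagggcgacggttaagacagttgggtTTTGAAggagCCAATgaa
Kif11: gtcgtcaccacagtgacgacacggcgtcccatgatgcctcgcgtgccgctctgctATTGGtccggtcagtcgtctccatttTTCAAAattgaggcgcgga
Prc1: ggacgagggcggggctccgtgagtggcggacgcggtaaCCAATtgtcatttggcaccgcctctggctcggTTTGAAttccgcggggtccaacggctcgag
Ube2c: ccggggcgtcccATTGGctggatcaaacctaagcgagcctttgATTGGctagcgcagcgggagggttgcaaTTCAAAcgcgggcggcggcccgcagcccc
Espl1: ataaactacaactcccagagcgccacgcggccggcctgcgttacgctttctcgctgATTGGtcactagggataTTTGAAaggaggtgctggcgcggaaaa
Cdk1 and Cdc20 each hold 2 CCAAT boxes in this stretch, and Ube2c, whose mRNA was kept in both cultures, also holds 2. Both motifs were found in the windows of 8 of 10 stabilized members with a window and of 15 of 23 other members. They were found for 16 of 21 members with 50% or less left at 12 h in control MEFs and for 7 of 12 with more. Motif counts were not split by the fold at 0 h. Among the members shown, Kif11 alone was more than 1.5-fold lower at 0 h. Birc5, the member that differed most at 0 h, held none of these motifs in its window. The same was true of Mad2l1, Plk4, Nuf2 and Pttg1, the last of which was higher at 0 h. A match is a run of letters in a window and says nothing about binding.

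Other genes of the pathway were listed by role and not by how they moved. For these lists and those that follow, the background for a lower 0 h signal was 15.7% of all named genes and 5.99% of genes at or above the median. For stabilization it was 11.9% of genes at or above the median. Of 26 other kinetochore and checkpoint genes, 14 had a more than 1.5-fold lower 0 h signal and 1 a higher one, and 6 were stabilized. Of the 26, 23 were at or above the median signal, as the rule for stabilization requires. The 14 include Mad1l1, which was near background. Kntc1, a subunit of the kinetochore complex that loads checkpoint proteins, had signals of 854, 1252 and 1468 in the control culture, against 263, 357 and 344 after CNOT3 depletion, and was lower at all times. Of 35 other spindle, condensin and cytokinesis genes, 31 of them at or above the median signal, 19 were lower and 11 stabilized. The 19 include Kif14, which was at background, with 4.07 in control MEFs and 1 after depletion at 0 h. Among the 35, Melk, a mitotic kinase, gave 981, 253 and 22.0 in the control culture, against 763, 662 and 674 after CNOT3 depletion. Gtse1, a microtubule-associated protein, gave 776, 119 and 97.3 in the control culture, against 1042, 1033 and 923 after CNOT3 depletion. Aspm, a spindle pole protein, gave 1166, 168 and 94.2 in the control culture, against 450.1, 340.4 and 271 after CNOT3 depletion. Melk, Gtse1 and Aspm were lost far more in control than in CNOT3-depleted MEFs.

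Of 17 APC/C subunits and inhibitors, 2 were lower at 0 h and 3 were stabilized, with a median log2 stabilization of −0.16. Among genes at or above the median signal 11.9% were stabilized. With so few genes, the counts in this paragraph are not read as different from the background shares. The subunit gene Anapc4 was stabilized, with signals of 5373, 2081 and 575 in the control culture, against 6345, 6237 and 6158 after CNOT3 depletion. Fbxo5, which encodes the APC/C inhibitor EMI1, gave 1526, 127 and 198 in the control culture, against 611, 85.0 and 12.4 after CNOT3 depletion, the last under the 25th percentile of its array, and was lost in both cultures. Of 11 other regulators of mitotic entry, 2 were lower and 3 stabilized, among them Wee1, the kinase that holds CDK1 inactive, with 779, 101 and 72.0 in the control culture, against 697, 474 and 303 after CNOT3 depletion. Of 14 regulators of G2/M transcription, 11 of them at or above the median signal, 5 were lower, 1 higher and 3 stabilized. The higher one, E2f4, was dim, with 23.0 in control MEFs and 74.9 after depletion at 0 h and 2 arrays under the 25th percentile. Lin54, the subunit of the DREAM complex that binds the CHR, was among the stabilized, with signals of 789.6, 101 and 47.5 in the control culture, against 446, 349.8 and 175 after CNOT3 depletion.

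Further lists of genes used by dividing cells were set beside these. Of 36 DNA replication genes, 8 were lower by the same threshold and 6 were stabilized, with a median log2 fold of −0.33 and a median log2 stabilization of 0.43. Cdc6, which loads the replicative helicase, gave 574, 82.6 and 12.7 in the control culture, against 269, 174 and 114 after CNOT3 depletion, with the 12 h control signal under the 25th percentile. Of 14 genes of G1 cyclins, their kinases and E2F factors, 3 were lower and 1 was stabilized, with medians of −0.17 and 0.06. The stabilized gene was Ccne2, an E-type cyclin, with 1418, 572 and 220.4 in the control culture, against 780.3, 772 and 718 after CNOT3 depletion. The differences between lists, and between these lists and the background shares, were not tested.

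**Figure D4:**
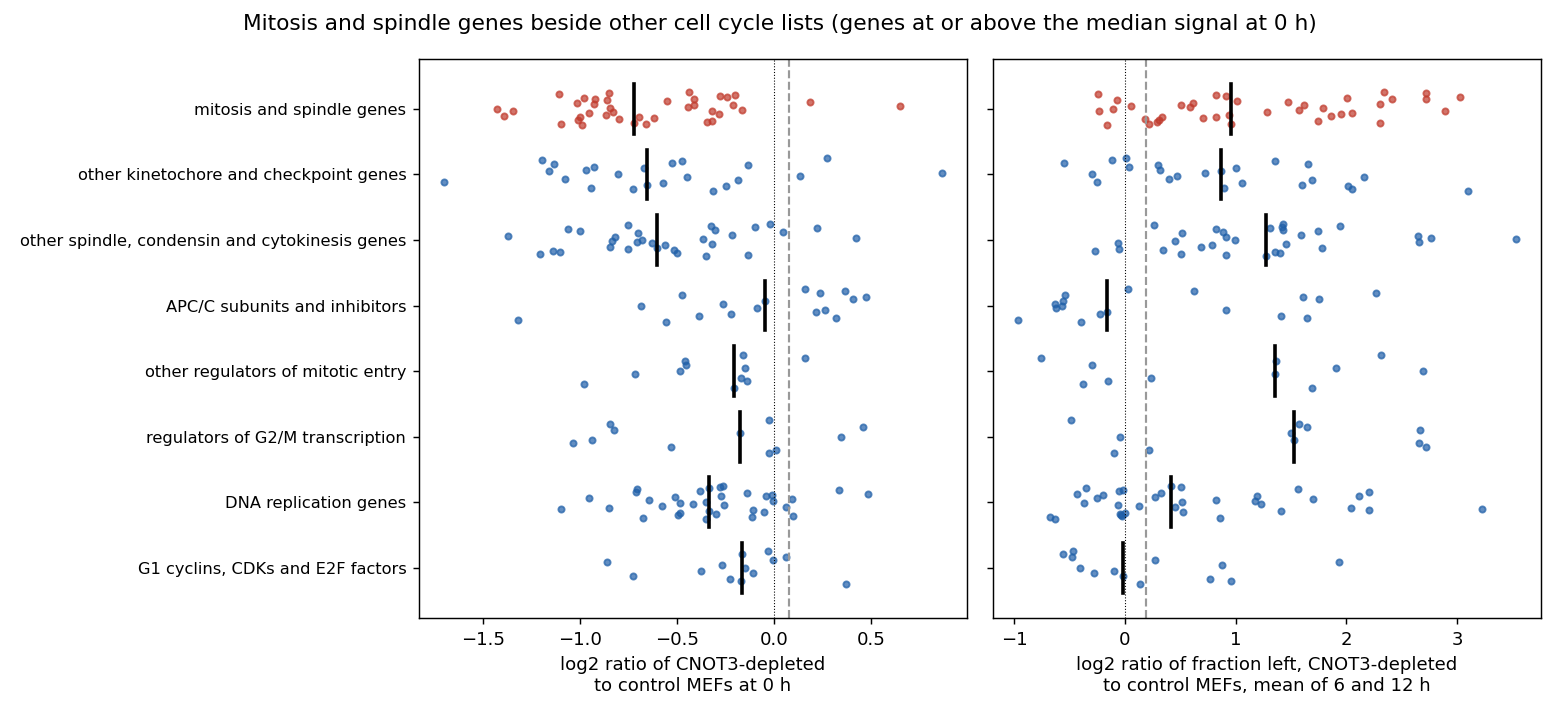
Log2 ratio of CNOT3-depleted to control signal at 0 h (left) and log2 stabilization, the mean over 6 and 12 h of the ratio of fractions left (right), for genes whose 0 h signal reached the median, in the mitosis and spindle list (red, 39 genes) and 7 other cell cycle lists (blue). Each point is a gene, the black bar is the median of the list, the dotted line marks 0 and the dashed grey line is the median of all such genes (0.08 and 0.19).

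Probe sets of the same gene are a check on the array but not on the culture. Of the members, 25 had more than 1 probe set, with 48 others in all, of which 37 gave the same direction at 0 h as the one used and 35 the same direction of stabilization. Among the 32 at or above the 25th percentile in every array, the counts were 29 and 26. The dissenting ones of these belonged to Bub3, Cenpa, Kif2c, Pttg1, Top2a and Tpx2. Bub3 was 1.14-fold higher in CNOT3-depleted MEFs at 0 h at the probe set used and 1.07-fold higher at its second brightest. At a dim one it was 0.441 times control, with signals of 46.3 in control MEFs and 20.4 after depletion. The 25th percentile of the latter array was 18.8.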

How the data were processed

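Total RNA of MEFs was labelled and hybridized by the authors to Affymetrix arrays for the mouse genome, and the deposited values are MAS5 signal intensity per probe set on a linear scale, 1 array for each of 6 conditions. The sources used here give neither the MAS5 version nor its scaling target. Precision is limited by the number of arrays. Each gene was read at its brightest probe set (by mean log2 signal of all 6 arrays), among 34945 of 45037 probe sets that the platform annotation pairs with exactly 1 gene (932 have several, 9160 none). Signals under 1 were to be set to 1, and 0 were. No further scaling was applied. Groups follow the labels. Ratios, percentages and medians were computed with python 3.11.15, numpy 2.4.6 and pandas 2.3.3, after the steps were tested on simulated data. No test was made, since no condition was repeated. All members are named, with Cnot3, Mad1l1 and, from each other list, genes among the most stabilized or the lowest at 0 h. The members and lists were chosen with earlier results of these data known. Alternatives were other scalings, floors, probe set choices and thresholds. A planned count of a protein motif was not run, since no protein table was given.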

Additional observations from a re-analysis of the deposited data

Results flagged for a closer look

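For 12 of the 39 members the cultures moved in opposite directions under Act. D: the signal was below its 0 h level at 6 and 12 h in control MEFs and above it at both times in CNOT3-depleted MEFs. The share over genes at or above the median signal was 8.26%. With 1 array per condition this difference was not tested. Their log2 stabilization was 2.34 for Cdk1, 2.72 for Ccna2, 2.41 for Nek2, 1.01 for Bub1b, 1.47 for Bub3, 1.79 for Aurkb, 1.57 for Cdca8, 1.86 for Kif11, 0.82 for Kif2c, 0.71 for Tpx2, 1.74 for Prc1 and 2.30 for Ect2. Other probe sets at or above the 25th percentile in every array were present for 10 of these members, and 11 of those 16 probe sets, in 7 members, did not show the opposite movement (Bub1b, Bub3, Ccna2, Kif2c, Nek2, Prc1 and Tpx2). Log2 stabilization was negative at 3 of the 16, in Kif2c and Tpx2, and at dimmer probe sets of Bub1b (−1.14) and Nek2 (−3.24). Some of the 12 rest on small margins at the probe set used. After depletion Bub1b stood at 100.4% of its 0 h signal at 6 h, and at 12 h Tpx2 stood at 100.3% and Prc1 at 101%. Over 12 h the geometric mean of ribosomal protein genes rose from 9798 to 10964 after depletion, so the count depends on the scale chosen.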

How the results depend on the processing

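With 1 array per condition no spread between replicates exists, no replicate could be left out, and signal near background limits dim genes. No paired analysis was possible because each condition had 1 array and no result comes from a test. Of the values over all members, 69 alternatives moved the value by less than 1.5 times and 11 by more, and 0 turned its direction. Some of the 69 could not have moved it. Keeping only members at or above the median signal kept all 39. A floor at the 25th percentile touched 0 of them. With ribosomal protein scaling 20 members were stabilized and the median left at 12 h in control MEFs was 17.4%. This scaling divides each array by 1 factor. It moved the median log2 stabilization of all genes from 0.02 to 0.53 and their median log2 fold from 0.06 to 0.19. The members' distance from these medians, 0.94 and −0.79, cannot change under such a scaling. With the median over all probe sets the control median was 44.5% and 5 members were at or under 50% in CNOT3-depleted MEFs. The share over genes at or above the median signal was then 17.7%. At the second brightest probe set, held by 25 members, 14 were lower at 0 h and 13 were at or under 50% in control MEFs. There 19.3% of 9010 genes were lower at 0 h. Of those at or above the median signal, 36.8% were at or under 50% in control MEFs. A 2-fold threshold left 8 lower and 0 higher. At 12 h alone the median log2 stabilization was 1.59 and 23 members were stabilized, the latter chosen after seeing the data, and with 1.5 times in place of 2 times 20 were. No share over all genes is given for the 2-fold threshold or for these changed rules, so their counts stand without a background. Of the values of single members, 20 changed sign under an alternative, 16 of them with a reported size of at most 1.5-fold: the log2 stabilization of Ccnb2, Bub1, Birc5, Cenpa and Mki67 under quantile and ribosomal protein scaling, that of Pttg1 and Cenpa at other probe sets, and the 0 h fold of Bub3 and Aurka at other probe sets. The other 4 were log2 stabilization of −0.45 for Kif2c and −0.47 for Top2a with the median over probe sets, and of −2.05 for Ttk and −0.47 for Top2a at the second brightest. The second probe set of Aurka was under the 25th percentile in 6 arrays and that of Ttk in 2. The cause was not tested.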

Other observations

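Mad1l1, which encodes the checkpoint protein MAD1, was near background. Its signals at 0, 6 and 12 h were 39.7, 3.79 and 4.85 in the control culture, against 8.51, 37.3 and 27.4 after CNOT3 depletion, and the 3 lower of these were under the 25th percentile of their arrays, so no fold is given. It is counted above among the lower kinetochore and checkpoint genes by the threshold alone.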
